A study of Mus musculus with 13 samples.

Results

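Gata3, Elf5, Foxa1, Esr1, Cdh1 and Grhl2 are 6 genes that mark or maintain luminal and epithelial identity, and their 5-hydroxymethylcytosine (5hmC) was read here in mouse breast tumours. The measurements come as the percentage of 5hmC in bins of 300 kb, so a gene was represented by every bin that its body overlaps. That gave 7 bins, 1 for each gene except Esr1, which has 2, of 9097 bins in all and of 8576 that were analysed. A bin is much longer than most of these genes and also holds their neighbours, so each value belongs to a stretch of chromosome and not to the gene alone.

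Positions are given on GRCm38. Gata3 (chromosome 2, bases 9857078 to 9887953) lies whole in the bin of bases 9600001 to 9900000, and Elf5 (chromosome 2, bases 103412098 to 103450989) in that of 103200001 to 103500000. Foxa1 (chromosome 12, bases 57540628 to 57548029) lies in the bin of bases 57300001 to 57600000. Esr1 (chromosome 10, bases 4611989 to 5005633) is 393645 bases long and is split between the bins of 4500001 to 4800000 and 4800001 to 5100000. Cdh1 (chromosome 8, bases 106603350 to 106670247) lies in the bin of bases 106500001 to 106800000, and Grhl2 (chromosome 15, bases 37232821 to 37363569) in that of 37200001 to 37500000. Each bin thus mixes exons, introns and DNA between genes.

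GATA3 is a zinc-finger transcription factor needed for luminal cells of the mammary gland to form and to stay differentiated. ELF5 is an Ets-family factor of luminal progenitors and milk-secreting alveoli, FOXA1 opens chromatin for the estrogen receptor, and Esr1 encodes that receptor. GRHL2 is a Grainyhead-family factor that keeps cells epithelial and activates Cdh1, which encodes the adhesion protein E-cadherin. 5hmC is made from 5-methylcytosine by TET enzymes, which use oxygen, and it is commonly found in the bodies and enhancers of genes that a cell type uses.

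The 13 tumours arose in FVB mice from the polyoma middle T antigen (PyMT), a viral oncoprotein, and were measured by Tet-assisted bisulfite sequencing (TAB-seq), which reads 5hmC apart from 5-methylcytosine. One model compared 4 tumours of Phd2 heterozygous (PHD2+/-) mice with 3 tumours of Phd2 wild-type (PHD2+/+) mice, all at 16 weeks. PHD2 is an oxygen-sensing prolyl hydroxylase, and per the labels its partial loss restores tumour vessels and oxygen. The other model compared 3 tumours of mice that overexpressed sFlk1, a soluble receptor that binds the angiogenic factor VEGF, with 3 tumours of mice given the empty PRRL2 vector, all at 12 weeks. Both plasmids were delivered by hydrodynamic injection, and sFlk1 makes tumours more hypoxic, per the labels. The labels do not say which cells carry the Phd2 allele, nor how a tumour was sampled. The models differ in age as well as in treatment. The tumours were not sorted into cell types, so more 5hmC per cell and more cells of a 5hmC-rich type cannot be told apart. A DNA modification gives no transcript level, so the tissue label could not be checked against marker genes.

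Averaged over all 8576 bins, 5hmC was 2.87 ± 0.265% in Phd2 heterozygous tumours (SD, n = 4), 2.34 ± 0.137% in Phd2 wild-type tumours, 2.46 ± 0.0670% in sFlk1 tumours and 2.68 ± 0.158% in empty-vector tumours (SD, n = 3 each). A difference in a single bin therefore stands on a shift of the whole genome, and the values below are also given divided by the mean of their own tumour where this changes what they show. For differences in points, the divided values were multiplied by the average of the tumour means, which brings them back to the scale of percent. The deposited values have no read counts, so depth is unknown and the precision rests on the spread between tumours.

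Promoters of 4 of the 6 genes, in 6 windows, were present in the RefSeq sequence table for GRCm38.p6. A window runs from 250 bases before to 50 bases after a start site of the gene, which need not be the outer end of the gene body. The Gata3 and Foxa1 windows lie inside the gene bodies given above. The windows of Gata3, Elf5 and Foxa1 are shown because these genes share a luminal role while their start sites differ in CpG, the dinucleotide at which most 5hmC lies, and because their bins differ in 5hmC. Capitals mark CpG, and all other bases are in lower case.
Gata3 (chr2:9878551-9878850, minus strand): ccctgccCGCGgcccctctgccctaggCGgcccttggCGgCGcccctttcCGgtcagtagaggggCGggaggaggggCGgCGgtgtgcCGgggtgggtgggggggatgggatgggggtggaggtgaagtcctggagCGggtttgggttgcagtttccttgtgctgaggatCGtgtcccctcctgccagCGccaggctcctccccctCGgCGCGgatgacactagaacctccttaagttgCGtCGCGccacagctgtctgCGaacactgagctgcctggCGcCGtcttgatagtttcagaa
Elf5 (chr2:103411848-103412147, plus strand): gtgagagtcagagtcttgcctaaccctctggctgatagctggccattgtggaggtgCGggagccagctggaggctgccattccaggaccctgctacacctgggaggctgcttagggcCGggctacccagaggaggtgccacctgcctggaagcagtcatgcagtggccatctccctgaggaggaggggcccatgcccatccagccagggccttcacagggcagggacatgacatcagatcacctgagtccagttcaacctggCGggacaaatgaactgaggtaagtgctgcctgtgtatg
Foxa1 (chr12:57546062-57546361, minus strand): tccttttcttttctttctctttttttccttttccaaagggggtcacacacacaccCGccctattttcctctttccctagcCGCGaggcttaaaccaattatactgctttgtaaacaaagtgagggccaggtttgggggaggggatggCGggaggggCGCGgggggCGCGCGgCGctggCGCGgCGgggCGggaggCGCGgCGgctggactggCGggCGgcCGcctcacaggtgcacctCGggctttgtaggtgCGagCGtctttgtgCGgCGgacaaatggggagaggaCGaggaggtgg

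The Gata3 window holds 22 CpG, and 23.1% of the 32851 mouse promoter windows hold at least as many. The Elf5 window holds 3, a number that 76.7% of windows reach. The Foxa1 window holds 26, which 16.9% of windows reach, against a median of 7. A second Elf5 window has 10 CpG, and the Esr1 windows have 6 and 12. Such a window is a small piece of its bin, and the bin value does not show how much 5hmC lies in it.

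By their average, the bins of Grhl2, Elf5 and Gata3 were among the most 5hmC-rich in these tumours. Over the 13 tumours, the Grhl2 bin averaged 7.93 ± 1.82% (SD), which was higher than 99.8% of all bins. The Elf5 bin averaged 7.40 ± 0.858%, higher than 99.5% of bins, and the Gata3 bin averaged 5.97 ± 1.56%, higher than 96.4%. Within single tumours, Gata3 ran between percentiles 76.0 and 99.4, while Grhl2 did not fall below 95.5 and Elf5 not below 95.3. The Cdh1 bin followed with 4.46 ± 1.33%, and these 4 bins lay above the mean of their own tumour in 13 of 13 tumours.

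Esr1 and Foxa1 were lower. The first Esr1 bin, which holds the gene's start, averaged 3.40 ± 0.651% and exceeded the tumour mean in 11 of 13 tumours. The second Esr1 bin averaged 2.43 ± 0.941% and the Foxa1 bin 2.33 ± 0.751%, and each exceeded the tumour mean in 5 tumours. Both lay near the middle of the genome, at percentiles 51.3 and 49.7.

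**Figure D1:**
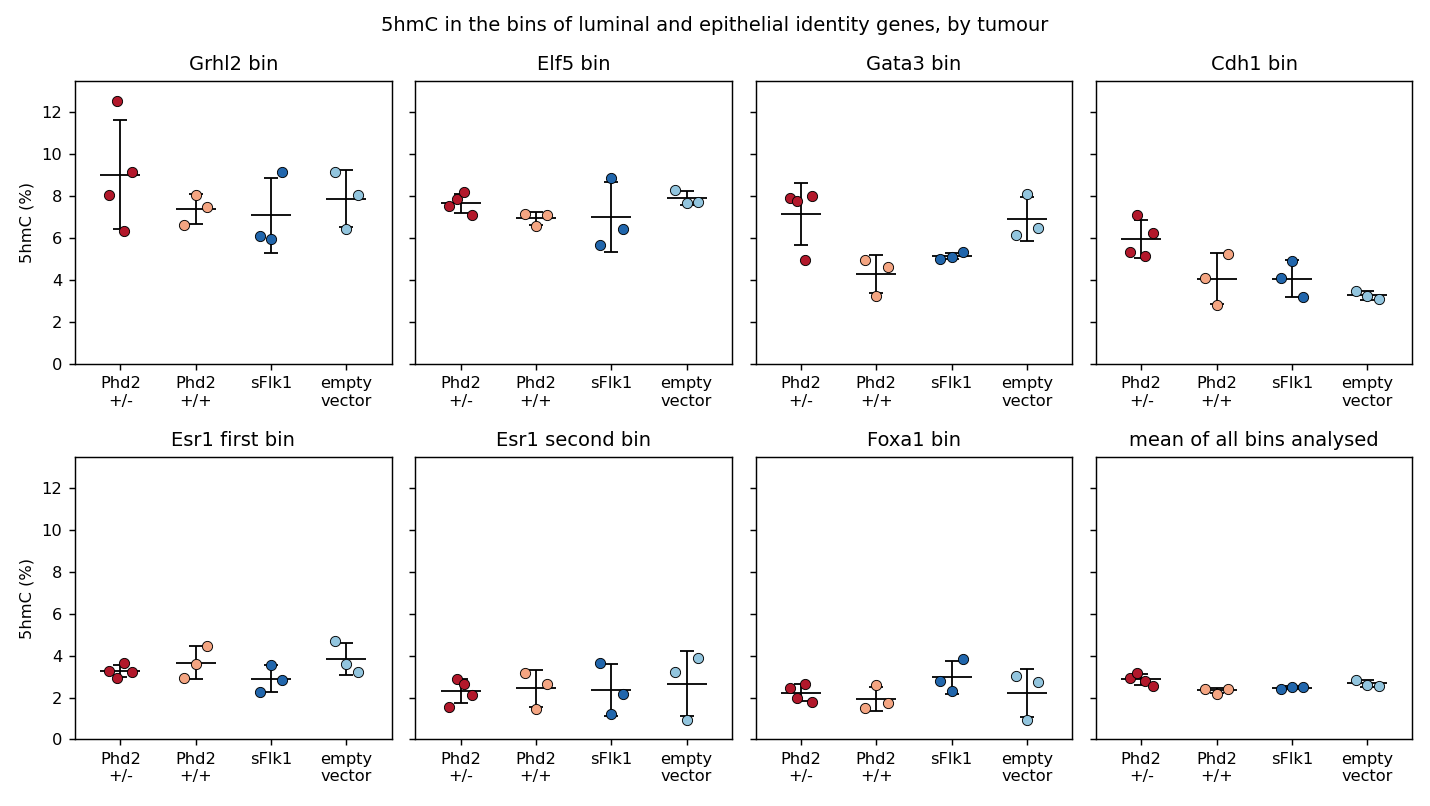
5hmC in percent (vertical axis) of each gene's bin in every tumour (points), by group, with the group mean as a line and its SD as a bar, and in the last panel the mean of all bins. Grhl2 and Elf5 sit highest and Foxa1 and the second Esr1 bin lowest in most tumours, and the 4 groups overlap widely in most bins.

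Neighbours in the order of levels were not well separated, least of all at its ends. Within a tumour, Grhl2 exceeded Elf5 by 0.536 ± 1.98 percentage points (SD over 13 tumours), and did so in 9 tumours, so this pair did not differ beyond its spread. Elf5 exceeded Gata3 in 10 tumours, by 1.43 ± 1.55 points, and Gata3 exceeded Cdh1 in 11 tumours, by 1.51 ± 1.57 points. Cdh1 exceeded the first Esr1 bin in 9 tumours, by 1.05 ± 1.53 points, and that bin exceeded the second Esr1 bin in 10 tumours, by 0.974 ± 1.23 points. The second Esr1 bin and Foxa1 differed by 0.0975 ± 1.02 points, and none of these neighbouring pairs differed in the same direction in all 13 tumours. Grhl2 was among the 2 highest of the 7 bins in 12 tumours and Elf5 in 11, while Foxa1 was the lowest in 7. By group mean, Elf5 stood above Grhl2 in empty-vector tumours and Foxa1 stood above both Esr1 bins in sFlk1 tumours.

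Relative to its mean, the Elf5 bin varied least of the 7. Its SD within groups was 11.6% of its mean, and that of Grhl2 was 23.7%. In points the Grhl2 SD (1.88) was larger than in 98.5% of its class, the highest of 5 classes of bins by level. That class averaged 5.21%, well below Grhl2, and its median SD was 1.06 points, against 0.382 points in the lowest class. The SD of the second Esr1 bin was 44.2% of its mean, larger in points than in 93.3% of its class, which averaged 2.36%.

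Averaged over the 13 tumours, the bins of 3 of the genes held more 5hmC than the mean of the bins beside them. Each bin was set against the mean of the 2 bins on either side in the same tumour, and 24.1% of the 8470 bins tested stood above their flanks at an adjusted p of 0.05 while 33.4% stood below. The Grhl2 bin stood above its flanks in 13 of 13 tumours, by 2.99 ± 1.47 points (exact sign permutation, two-sided p = 0.000244, the smallest that 13 tumours allow, adjusted p = 0.0011). The Elf5 bin stood 2.14 ± 1.18 points above its flanks and was higher in 12 tumours (exact sign permutation p = 0.000488, adjusted p = 0.00169). The Gata3 bin stood 1.88 ± 1.38 points above its flanks, also in 12 tumours, with the same exact permutation p and adjusted p. Grhl2 and Elf5 were each the highest of the 21 bins centred on them, and Gata3 ranked 4 among its 21.

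The other 4 bins did not pass this test. Foxa1 stood 0.351 points above its flanks (exact sign permutation, adjusted p = 0.249), and its neighbour toward the chromosome start was higher, with 4.33%. The first Esr1 bin differed from its flanks by -0.352 points (exact permutation, adjusted p = 0.244) and the second by -0.493 points (exact permutation, adjusted p = 0.13). Cdh1 lay 0.264 points below its flanks (exact permutation, adjusted p = 0.562), and the next bin held 6.51%.

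The share of a bin inside protein-coding genes, a rough guide to how much transcribed DNA it can hold, set the levels of Gata3 and Elf5 further apart from other bins. Across 8576 bins this share and 5hmC had a Spearman correlation of 0.447, given as a description because neighbouring bins are not independent. Gata3 is the only coding gene in its bin and covers 10.3% of it. Bins with a share of up to 20% had a median of 1.14%, and the 5.97% of the Gata3 bin was at or above 99.2% of them. Coding genes cover 36.7% of the Elf5 bin, and Elf5 itself covers 13% of it, and the bin was at or above 99.9% of bins with a share of 20 to 40%. The other genes there are Ehf, an Ets factor of epithelia, and Cat, which encodes catalase.

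Gene-rich bins did not all hold much 5hmC. Coding genes cover 88.2% of the Grhl2 bin, which was at or above 99.4% of its class. Grhl2 itself covers 43.6% of it, and the bin also holds Ncald and 4930447A16Rik. Foxa1 lies in a bin with a share of 72.2%, mostly from Mipol1 and Ttc6, since Foxa1 itself covers 2.47%, and the bin was at or above 20.1% of its class. The Cdh1 bin, of which Cdh1 covers 22.3% and which also holds Tango6 and the P-cadherin gene Cdh3, was at or above 72.2% of its class. Esr1 covers 62.7% of its first bin, beside Ccdc170, and 68.5% of its second, beside Syne1. These bins were at or above 56.8% and 42.4% of their class.

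**Figure D2:**
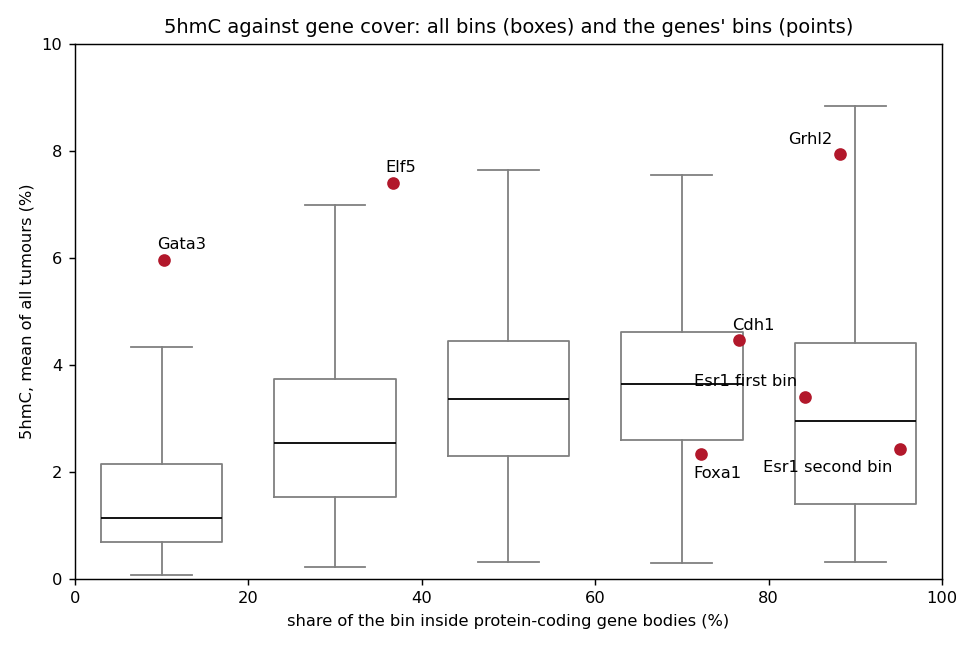
Mean 5hmC over all tumours in percent (vertical axis) against the share of the bin inside protein-coding genes in percent (horizontal axis). Boxes show the quartiles and median of all bins in 5 classes of share, with whiskers to the farthest bin within 1.5 box heights, and points are the genes' bins. Gata3 and Elf5 lie above the whisker of their class, Grhl2 near the top of its own, and Foxa1 below its box.

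Comparing Phd2 heterozygous with Phd2 wild-type tumours asks how 5hmC differs when tumour oxygen is restored. None of the 7 bins passed the threshold, limma with an adjusted p under 0.05 over all bins, and none of all bins did (0%). At an unadjusted limma p under 0.05, 2 of the 7 bins were higher in heterozygous tumours, Gata3 and Cdh1, where 10.4% of all bins were higher (892) and 0.443% lower (38). Without wild-type tumour 2 these became 437 higher and 26 lower over all bins, and of the 7 only Gata3 was left. When values were divided by the tumour mean, these numbers over all bins became 139 higher and 191 lower, and of the 2 bins only Gata3 kept an unadjusted p under 0.05. In mean value, 5 of the 7 bins were higher in heterozygous tumours, against 75.1% of all bins, and 2 were lower, against 24.8%. The median difference was 0.731 points in the 7 bins and 0.385 points in all, but bins of higher level differed more. Among the highest 5hmC bins, the class of Grhl2, Elf5, Gata3 and Cdh1, the median was 1.25 points, which Elf5 (0.731) did not reach. It was 0.806 points in the class of the first Esr1 bin and 0.421 in that of Foxa1 and the second Esr1 bin, and all 3 were below it. Division by the tumour mean moved the median of all bins to -0.0358 points and turned the differences of Elf5, Foxa1 and Grhl2 negative.

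Gata3 held 7.91%, 7.75%, 4.95% and 8.01% in Phd2 heterozygous tumours 1 to 4, against 4.96%, 3.25% and 4.61% in Phd2 wild-type tumours 1 to 3. Heterozygous tumours 1, 2 and 4 were above every wild-type tumour, and tumour 3 lay within the wild-type range, so the groups overlapped. The difference of 2.88 points (SE 0.877) was larger than in 99.3% of bins and had an unadjusted limma p of 0.00285 but an limma adjusted p of 0.324. The exact permutation test gave a two-sided p of 0.0857, where 0.0286 is the smallest that 4 against 3 tumours allow. As a plain ratio to the tumour mean, not in points, Gata3 stood at 2.51 ± 0.581 in heterozygous tumours (SD, n = 4) and 1.82 ± 0.288 in wild-type tumours (SD, n = 3). The limma fit of the divided values gave an adjusted p of 1.

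The bins on both sides of Gata3 did not differ as much. The adjoining bins differed by 0.692 points toward the chromosome start and 1.64 points toward its end. The next bins out differed by 1.62 points toward the start and -0.274 points toward the end. None of these bins passed the limma threshold, but neither did Gata3, so the threshold does not set Gata3 apart from them. With neighbouring bins averaged, the Gata3 difference was 1.74 points. Whether the difference is local to the Gata3 bin was not tested. Gata3 stood 2.63 ± 1.54 points above its flanks in heterozygous tumours (SD, n = 4) and 0.662 ± 0.831 points in wild-type tumours (SD, n = 3), a difference that was not tested.

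Cdh1, the adhesion gene, held 5.34%, 7.09%, 5.12% and 6.24% in Phd2 heterozygous tumours, against 4.10%, 2.81% and 5.26% in Phd2 wild-type tumours. Wild-type tumour 3 overlapped the heterozygous range, and wild-type tumour 2 was the lowest. The difference was 1.89 points (SE 0.725, unadjusted limma p = 0.0147, limma adjusted p = 0.36, exact permutation p = 0.0857). Without wild-type tumour 2 it was 1.27 points with an unadjusted limma p of 0.128, and relative to the tumour mean it was 0.947 points with an unadjusted limma p of 0.18.

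Grhl2, which encodes an activator of Cdh1, held 8.04%, 12.6%, 6.36% and 9.17% in Phd2 heterozygous tumours, against 6.62%, 8.04% and 7.5% in Phd2 wild-type tumours. Heterozygous tumour 2 was the highest of all 13 tumours, and tumour 3 was below every wild-type tumour. The difference was 1.65 points (SE 1.27, limma adjusted p = 0.637). It was 0.471 points without heterozygous tumour 2 and 2.54 points without heterozygous tumour 3. With neighbouring bins averaged it was 1.59 points (limma adjusted p = 0.149), and relative to the tumour mean it turned to -0.0872 points.

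Elf5 held 7.55%, 7.85%, 8.18% and 7.10% in Phd2 heterozygous tumours, against 7.15%, 6.57% and 7.08% in Phd2 wild-type tumours. Only heterozygous tumour 4 and wild-type tumour 1 overlapped, and the difference was small beside those of Gata3 and Cdh1, at 0.731 points (SE 0.969, limma adjusted p = 0.802, exact permutation p = 0.0857). It was -0.732 points relative to the tumour mean.

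The bins of Foxa1 and Esr1 had the smallest differences in points, though not relative to the tumour mean, where the first Esr1 bin was second only to Gata3 in size. Foxa1 held 2.47%, 1.97%, 2.66% and 1.81% in heterozygous tumours, against 1.5%, 2.58% and 1.75% in wild-type tumours. The groups overlapped, with a difference of 0.283 points (SE 0.577, limma adjusted p = 0.881) that was -0.164 points relative to the tumour mean. The first Esr1 bin held 3.25%, 2.94%, 3.65% and 3.20% in heterozygous tumours, against 2.91%, 3.6% and 4.48% in wild-type tumours. Wild-type tumour 3 was the highest there, and the difference was -0.408 points (SE 0.608, limma adjusted p = 0.827) and -1.11 points relative to the tumour mean. The second Esr1 bin held 1.57%, 2.88%, 2.64% and 2.12% in heterozygous tumours, against 3.18%, 1.47% and 2.66% in wild-type tumours, groups that overlapped almost wholly. Its difference was -0.134 points (SE 0.677, limma adjusted p = 0.962) and -0.588 points relative to the tumour mean.

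None of the 7 bins had heterozygous values that were all above the wild-type values, a pattern that 11% of all bins had, and none had values that were all below, a pattern of 0.933% of bins.

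Comparing sFlk1 with empty-vector tumours asks how 5hmC differs when tumours are made more hypoxic. None of the 7 bins passed the limma threshold, which 0.0117% of all bins did (1 bin), and none had an unadjusted limma p under 0.05, where 5.06% of all bins were lower in sFlk1 tumours (434) and 2.12% higher (182). Divided by the tumour mean, these became 266 lower and 352 higher over all bins. In mean value 5 of the 7 bins were lower in sFlk1 tumours, against 59.5% of all bins, and 2 were higher, against 40.3%. The median difference was -0.79 points in the 7 bins and -0.146 points in all, but bins of higher level again differed more. In the class of Grhl2, Elf5, Gata3 and Cdh1 the median was -0.579 points. It was -0.324 points in the class of the first Esr1 bin and -0.204 in that of Foxa1 and the second Esr1 bin. Division by the tumour mean moved the median of all bins to 0.03 points and the middle one of the 7, Grhl2, to -0.156 points, and the 7 bins kept their direction. Gata3 was then at -1.29 points, Elf5 at -0.307, the Esr1 bins at -0.649 and -0.0829, Cdh1 at 1.14 and Foxa1 at 0.984. Cdh1 and Foxa1 were the bins with the higher mean in sFlk1 tumours.

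Gata3 held 5.01%, 5.11% and 5.32% in sFlk1 tumours, against 6.13%, 8.10% and 6.47% in empty-vector tumours. Every sFlk1 tumour was below every empty-vector tumour, as in 8.24% of all bins, and Gata3 was the only 1 of the 7 bins with this pattern. No bin of the 7 had sFlk1 values that were all above the empty-vector values, as 3.43% of bins had. The sFlk1 tumours had an SD of 0.16 points (n = 3), whereas empty-vector tumour 2 stood above the other two. The difference was -1.75 points (SE 0.938, limma adjusted p = 0.705) and -1.15 points without empty-vector tumour 2, and the exact permutation p of 0.1 is the smallest that 3 against 3 tumours allow.

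Elf5 held 5.66%, 8.86% and 6.45% in sFlk1 tumours, against 8.30%, 7.69% and 7.74% in empty-vector tumours. sFlk1 tumour 2 was the highest of these 6 and sFlk1 tumours 1 and 3 the lowest, so the groups overlapped, and the difference was -0.92 points (SE 1.04, limma adjusted p = 0.873). It was -1.86 points without sFlk1 tumour 2 and -0.253 points without sFlk1 tumour 1. Grhl2 held 6.11%, 5.97% and 9.17% in sFlk1 tumours, against 9.15%, 6.43% and 8.04% in empty-vector tumours. Here sFlk1 tumour 3 was the highest, so the groups overlapped, and the difference was -0.79 points (SE 1.36, limma adjusted p = 0.92). It was -1.83 points without sFlk1 tumour 3 and -0.151 points without empty-vector tumour 1.

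Cdh1 held 4.11%, 4.91% and 3.18% in sFlk1 tumours, against 3.46%, 3.24% and 3.08% in empty-vector tumours. sFlk1 tumours 1 and 2 were above every empty-vector tumour and sFlk1 tumour 3 was not, with a difference of 0.806 points (SE 0.775, limma adjusted p = 0.856, exact permutation p = 0.3). Foxa1 held 2.78%, 2.29% and 3.82% in sFlk1 tumours, against 3.04%, 0.905% and 2.74% in empty-vector tumours. Empty-vector tumour 2 was the lowest by far, and the difference was 0.736 points (SE 0.617, limma adjusted p = 0.827). Without empty-vector tumour 2 it was 0.0744 points.

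The first Esr1 bin held 2.29%, 3.57% and 2.84% in sFlk1 tumours, against 4.68%, 3.59% and 3.23% in empty-vector tumours. sFlk1 tumour 2 overlapped the empty-vector range, and the difference was -0.938 points (SE 0.65, limma adjusted p = 0.774). The second Esr1 bin held 3.67%, 1.21% and 2.17% in sFlk1 tumours, against 3.22%, 0.927% and 3.87% in empty-vector tumours. The tumours within each group differed more than the groups did, by -0.319 points (SE 0.724, limma adjusted p = 0.948).

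**Figure D3:**
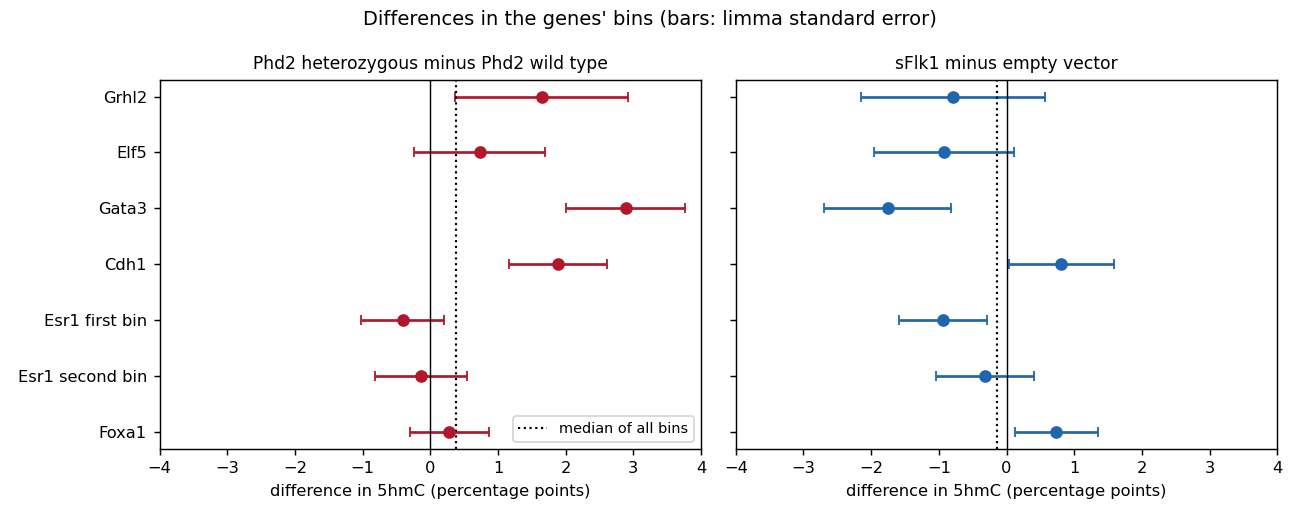
Difference in 5hmC in percentage points (horizontal axis) with its limma standard error for each gene's bin, in Phd2 heterozygous minus Phd2 wild-type tumours and in sFlk1 minus empty-vector tumours. Gata3 lies farthest from 0 in both, at 2.88 and -1.75 points, and relative to the tumour mean the Phd2 differences of Elf5, Foxa1 and Grhl2 lie on the other side of 0.

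Both models were then put in 1 contrast, the better oxygenated tumours (Phd2 heterozygous and empty vector) minus the less oxygenated ones (Phd2 wild type and sFlk1). None of the 7 bins passed the limma threshold, as 0.0117% of all bins did (1 bin), and 1 of the 7, Gata3, was higher at an unadjusted limma p under 0.05, where 12% of all bins were (1025) and 1.06% were lower (91). Divided by the tumour mean, these became 226 higher and 306 lower over all bins, and Gata3 kept an unadjusted limma p under 0.05. In mean value 6 of the 7 bins were higher, against 72.3% of all bins, and only Foxa1 was lower (-0.226 points), though division by the tumour mean turned Elf5, Cdh1 and both Esr1 bins negative. Among the highest 5hmC bins the median was 0.911 points, above Elf5 (0.826) and Cdh1 (0.543) and below Grhl2 (1.22) and Gata3. It was 0.544 points in the class of the first Esr1 bin (0.265). In the class of Foxa1 and the second Esr1 bin (0.0924) it was 0.312 points. No bin of the 7 had better oxygenated values that were all above the less oxygenated ones within each of the models, as 1.21% of bins had. None had the opposite within each model, as 0.07% had. Values were not compared across models for this.

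Gata3 was 2.32 points higher in the better oxygenated tumours (SE 0.642, limma adjusted p = 0.171), a difference larger than in 99.4% of bins. With labels permuted within each model, the exact permutation p was 0.00571, which was 0.268 after adjustment over all bins. Relative to the tumour mean the difference was 1.56 points (limma adjusted p = 0.751).

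The difference between the models, the Phd2 effect minus the effect of empty vector over sFlk1, was largest for Cdh1. It was 2.70 points (SE 1.06, limma p = 0.0172, limma adjusted p = 0.927, exact permutation p = 0.0186 and 0.98 after adjustment). Cdh1 was higher in mean both in Phd2 heterozygous than in wild-type tumours and in sFlk1 than in empty-vector tumours. It was the only 1 of the 7 bins with an unadjusted p under 0.05, where 3.94% of all bins were higher and 0.0117% passed the adjusted threshold (1 bin). The Cdh1 value was 2.08 points without Phd2 wild-type tumour 2 (unadjusted limma p of 0.0728) and 2.28 points without sFlk1 tumour 2 (unadjusted limma p of 0.0515). With neighbouring bins averaged it was 0.948 points (unadjusted limma p of 0.164). In all, 4 of the 7 bins had a higher and 3 a lower Phd2 effect, against 62.9% and 37.1% of all bins, and Grhl2 turned from higher to lower after division by the tumour mean. For Gata3 the difference was 1.13 points (SE 1.28, limma adjusted p = 0.966).

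Relative to the tumour mean, the 7 bins did not vary as a unit from tumour to tumour. The division takes out the shift that all bins of a tumour share, so it does not show whether the undivided values rose and fell together. Over 21 pairs of bins, with values divided by the tumour mean, Pearson's r over 13 tumours ran between -0.523 (Gata3 and Foxa1) and 0.614 (Elf5 and the first Esr1 bin), with a median of -0.0785 and 7 pairs above 0. These are descriptions, and all pairs share the same libraries.

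Bins of other chromosomes whose pattern was most like that of each gene were also found, among at least 5521 bins and with the same scaling. For Gata3 these were the bins of Cog5 and Prkar2b (Pearson's r = 0.881, Spearman's rho = 0.791, 13 tumours) and of Septin7 and Eepd1 (r = 0.878, rho = 0.835). For Grhl2 they were the bins of Myo5b (r = 0.869) and of Cobll1 and Slc38a11 (r = 0.83). For Cdh1 they were those of Pkn2 and 4930519L02Rik and of 1600014C10Rik and Pop4 (r = 0.852 in each). For Elf5 they were the bins of Irf2 and Primpol (r = 0.841) and of Cttnbp2nl and 4930564D02Rik (r = 0.836). For Foxa1 they were those of Aff3 (r = 0.866) and of Bpgm and Akr1b8 (r = 0.862). The first Esr1 bin was most like those of Tmem178b (r = 0.819), a bin with only 0.798% 5hmC, and of C77080 and S100pbp (r = 0.809). The second was most like those of Hspg2 and Usp48 (r = 0.882) and of Lair1 and Ttyh1 (r = 0.818). They are the highest values of a search over all these bins, in only 13 tumours.

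A further 40 epithelial genes, in 36 bins, included keratins, claudins and luminal regulators. Their bins had a median of 4.09%, against 2.36% for all bins. The other lists were also above all bins, with medians of 3.95% for basal, 3.73% for endothelial, 3.49% for epithelial-repressor, 3.13% for leukocyte and 2.95% for fibroblast genes. One of the 40, Ehf, lies in the Elf5 bin and repeats its values. Stat5a and Stat5b, transducers of the prolactin signal, share a bin with 6.54%, the keratin genes Krt8 and Krt18 share one with 5.52%, and Esrp1, an epithelial splicing factor, lies in one with 5.30%. Grhl3 and Grhl1, relatives of Grhl2, had 4.86% and 4.09%, and the lowest was Tbx3 with 0.82%. Pgr, the progesterone receptor gene and a target of the estrogen receptor, had 1.21%, so like Foxa1 and the second Esr1 bin it was not in a 5hmC-rich bin.

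None of these 40 genes lay in a bin that passed the limma threshold in either model. Between Phd2 heterozygous and wild-type tumours 33 had a higher and 7 a lower mean, against 75.1% of all bins with a higher mean, and their median difference was 0.484 points, against 0.385 points for all bins. In the classes of level that averaged 3.55% and 5.21%, bins had median differences of 0.806 and 1.25 points. Of the 40, 5 had an unadjusted limma p under 0.05, with Ocln and Marveld2 in 1 bin, where 10.4% of all bins were higher. Cd24a, a luminal surface marker, held 6.36 ± 1.13% in heterozygous tumours (SD, n = 4) and 4.09 ± 0.974% in wild-type tumours (SD, n = 3; limma adjusted p = 0.339). The tight-junction genes Ocln and Marveld2 share a bin that held 4.84 ± 0.596% in heterozygous tumours and 3.10 ± 0.306% in wild-type tumours (SD, n = 4 and 3, limma adjusted p = 0.357). Grhl1 held 5.12 ± 1.53% in heterozygous tumours and 3.19 ± 1.31% in wild-type tumours (limma adjusted p = 0.437), and Prom1, a luminal surface protein gene, 5.47 ± 1.35% in heterozygous tumours and 3.65 ± 0.717% in wild-type tumours (limma adjusted p = 0.46).

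Between sFlk1 and empty-vector tumours, 12 of the 40 had a higher and 28 a lower mean, against 59.5% of all bins with a lower mean, and their median difference was -0.42 points, against -0.146 points for all bins. Their median level was 4.09%. In the classes of level that averaged 3.55% and 5.21%, bins had median differences of -0.324 and -0.579 points. Of the 40, 2 had an unadjusted limma p under 0.05, where 5.06% of all bins were lower. Aldh1a3, an aldehyde dehydrogenase of luminal progenitors, held 3.05 ± 0.735% in sFlk1 tumours and 5.54 ± 0.429% in empty-vector tumours (SD, n = 3 each, limma adjusted p = 0.466). Pgr held 0.737 ± 0.0388% in sFlk1 tumours and 2.08 ± 1.64% in empty-vector tumours (limma adjusted p = 0.626). Tfap2c, a luminal transcription factor gene, held 4.05 ± 0.335% in sFlk1 tumours and 5.70 ± 1.11% in empty-vector tumours (limma adjusted p = 0.686). The Stat5a and Stat5b bin held 5.24 ± 0.721% in sFlk1 tumours and 7.09 ± 1.02% in empty-vector tumours (limma adjusted p = 0.705).

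Genes that oppose the epithelial state and markers of other cells in a tumour were read in the same way, and none of their bins passed the limma threshold in either model. Of 8 repressors of the epithelial state, 8 were higher in Phd2 heterozygous than in wild-type tumours in mean value, and 3 were higher in sFlk1 than in empty-vector tumours. Over all bins 75.1% and 40.3% were higher in these comparisons. Tcf4, which encodes a factor that represses Cdh1, held 6.08 ± 0.728% in heterozygous tumours and 4.63 ± 0.511% in wild-type tumours (SD, n = 4 and 3, limma adjusted p = 0.497). Foxc2 held 2.00 ± 0.459% in heterozygous tumours and 1.29 ± 0.524% in wild-type tumours. Twist1 held 0.995 ± 0.637% in sFlk1 tumours and 2.63 ± 0.302% in empty-vector tumours (SD, n = 3 each, limma adjusted p = 0.544), and Twist2 held 2.92 ± 1.48% in sFlk1 tumours and 3.62 ± 0.576% in empty-vector tumours.

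In Phd2 heterozygous tumours the mean was higher than in wild-type tumours for 7 of 8 basal genes, 5 of 8 endothelial genes, 8 of 8 fibroblast genes and 6 of 8 leukocyte genes. In sFlk1 tumours it was higher than in empty-vector tumours for 4, 2, 6 and 5 of them, beside the same shares of all bins. The median differences of basal, endothelial, fibroblast and leukocyte genes were 0.219, 0.93, 0.449 and 0.391 points for Phd2 heterozygous minus wild type, and 0.358, -0.355, 0.568 and 0.0562 points for sFlk1 minus empty vector, where all bins had 0.385 and -0.146 points. The bins of these lists had higher median levels than all bins, and bins of higher level differed more in both models. The part of these genes in the values of Gata3 and Cdh1 was not tested. The basal genes named by the rule were Mylk and Krt14 in the Phd2 model (1.64 and 0.882 points) and Cnn1 and Trp63 in the sFlk1 model (1.3 and -1.57 points). Among endothelial genes, Esam held 3.08 ± 0.522% in heterozygous tumours and 1.29 ± 0.524% in wild-type tumours (SD, n = 4 and 3, limma adjusted p = 0.324), and Pecam1, which encodes an endothelial adhesion protein, held 7.0 ± 0.525% in heterozygous tumours and 5.45 ± 0.864% in wild-type tumours. Vwf and Eng had lower means in sFlk1 tumours, with differences of -1.28 and -1.15 points. The fibroblast genes named were Pdgfra and Col1a1 (1.17 and 1.01 points) in the Phd2 model and Thy1 and Dcn (1.22 and 1.05 points) in the sFlk1 model. The leukocyte genes were Cd14 and Itgam (1.80 and 1.56 points) in the Phd2 model and Lyz2 (1.23 points) in the sFlk1 model.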

How the data were processed

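5hmC was measured by TAB-seq in 13 PyMT tumours, each from a mouse of its own by the labels. The authors deposited 1 table of 5hmC in percent per bin of 300 kb, with no read counts, so the counts could not be tested and depth is unknown. A 0 may mean no 5hmC or no data. The submitters' processing notes list Bismark 0.13.1 and the mm9 build without saying what each was used for. The bins end at GRCm38 chromosome lengths (chromosome 1 at 195471971), so GRCm38.p6 genes (RefSeq) were used. Coverage, conversion rates and the pooling of calls within a bin: not given in the sources used here.

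Bins of autosomes and X that were not 0 in all tumours were kept (8576). Percentages in all of them entered 1 limma fit (version 3.58.1, R 4.3.3) with a variance trend and 4 group means, with Benjamini-Hochberg adjustment at 0.05. Exact two-sided permutation tests were done in Python 3.11.15, and for the difference between models their null is no effect in either. The script was checked on simulated data. The labels do not say that replicate numbers pair the tumours, so the main fit has no pairing. Alternatives changed the scale, scaling, filter, trend, weights, window, tumours in the fit and replicate block. In the fits, values divided by the tumour mean or median were multiplied by the average of these means or medians.

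The 7 bins overlap the 6 gene bodies. Listed genes (80, all matched) were placed in the bin that holds most of their body. Named are all 6 genes, the 5 epithelial genes and the 2 genes of each other list with the smallest limma p in each model (genes in 1 bin tie), and the 2 most alike bins per gene. A leukocyte gene that the rule names is not reported here. The genes and lists were chosen with earlier results of these data known.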

Additional observations from a re-analysis of the deposited data

Results flagged for a closer look

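In the Phd2 heterozygous group, the Gata3 bin of tumour 3 was far from the others, with 4.95% against 7.75% to 8.01% in the other 3 tumours. The gap to the nearest tumour was 0.916 of the group's range, where 0.829 is the critical value for 4 tumours. Chance gives about 1 such group in 20, and 7 groups of 4 were examined. Without that tumour the difference from Phd2 wild-type tumours was 3.62 points (limma adjusted p = 0.231), against 2.88 points (limma adjusted p = 0.324) with it.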

How the results depend on the processing

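None of the 7 bins passed the limma threshold in any comparison under any alternative run. Of 686 differences recomputed, 647 kept their direction and their side of the threshold. Part of these could not change direction. A change of filter or trend leaves every difference as it was, and leaving out a tumour of 1 model does so for the other model's comparison. The cause of the reversals was not tested. Divided by the tumour mean and median, Elf5 became -0.732 and -0.56 points and Foxa1 -0.164 and -0.118 points for Phd2 heterozygous minus wild type, and Grhl2 became -0.0872 points with the mean. For better minus less oxygenated, Elf5 became -0.213 and -0.107 points, the first Esr1 bin -0.228 and -0.182, the second -0.252 and -0.222, and Cdh1 -0.0984 and -0.000627. For the difference between models, Grhl2 became -0.244 with the mean. With neighbouring bins averaged, Elf5 was 0.462 and Foxa1 -0.049 points for sFlk1 minus empty vector, Foxa1 was 0.137 for better minus less oxygenated, and Elf5 was 1.53 for the difference between models. With array weights the second Esr1 bin was -0.00735 for better minus less oxygenated.

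With 1 tumour left out at a time, signs changed within these ranges. For Phd2 heterozygous minus wild type the first Esr1 bin ran between -0.785 and 0.000225 points and the second between -0.615 and 0.237. For sFlk1 minus empty vector the second Esr1 bin ran between -1.19 and 0.279. For better minus less oxygenated, Foxa1 ran between -0.429 and 0.105 and the second Esr1 bin between -0.207 and 0.528. For the difference between models, Elf5 ran between -1.12 and 0.479, the second Esr1 bin between -1.32 and 0.145, and Grhl2 between -0.319 and 1.75. Gata3 kept its direction throughout: 2.38 to 3.62 points in the Phd2 model, -2.14 to -1.15 in the sFlk1 model.

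Over all bins, the number past the limma threshold for Phd2 heterozygous minus wild type was 0, 1 on the log2 scale and 0 to 1 without 1 tumour. For sFlk1 minus empty vector it was 1, 0 with neighbouring bins averaged and 1 to 4 without 1 tumour. For better minus less oxygenated it was 1, 2 on the log2 or arcsine scale or with neighbouring bins averaged, 3 with no trend, 0 with only bins above 0 or no filter, and 1 to 3 without 1 tumour. For the difference between models it was 1, 0 with bins above 0, no filter or neighbouring bins averaged, and 1 to 2 without 1 tumour. Same-numbered tumours did not deviate together (correlations of -0.0934 to -0.00429). With the replicate block, in which heterozygous tumour 4 stands alone, Gata3 was 2.60 points in the Phd2 model (limma adjusted p = 0.303), the Elf5 difference between models turned to 0.00013 and the numbers called were unchanged. The bins above their flanks were 3 of 7, and 4 with 5 flanking bins on each side (also the first Esr1 bin) or on the log2 scale (also Foxa1).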
